A study of Rattus norvegicus with 24 samples.

Results

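The cell cycle and DNA replication genes examined here are 40 listed genes that drive or mark cell division, of which 39 were measured, out of 14217 named genes on the array. A gene was measured where a probe set was annotated to its symbol alone, and its brightest probe set by mean log2 signal over all arrays was used. Rrm2 was left out because each of its probe sets was annotated to a second symbol as well. The measured genes were 5 G1 cyclins, 10 genes of replication licensing and the fork, 3 of nucleotide supply, 8 kinases, cyclins and partners of S phase, G2 and mitosis, 5 of the spindle checkpoint and mitotic exit, and 8 of the spindle, cytokinesis and chromosomes. The last 3 roles are called the division genes below and hold 21 of the 39.

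RNA came from male Wistar rats, 8 weeks old at sampling and with no genetic change named in the labels. From 7 weeks of age all rats were given chow only in a daily window from 10 to 16 h, for 7 days, so restricted feeding is shared by every group. On day 8 the fed group ate in that window again and the fasted group did not, which left it 24 h without food when tissues were taken at 16 h. Interscapular brown adipose tissue (BAT), perinephric white adipose tissue (WAT) and liver were each hybridised from 4 fed animals (numbers 1, 2, 4 and 5) and 4 fasted animals (6, 8, 9 and 10), 24 arrays in 6 groups. Array number limits the precision, and no sequencing depth applies.

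A dividing cell passes G1, copies its DNA in S phase and separates the copies in mitosis. D-type cyclins couple outside signals to the G1 kinases, E-type cyclins carry the cell into S phase, the MCM complex is loaded on origins and unwinds the DNA, and Cdk1 with A- and B-type cyclins drives mitosis until the anaphase-promoting complex destroys them. In adult fat and liver most parenchymal cells rest, and transcripts of division genes come from the few cells in cycle, which in adipose tissue include preadipocytes, endothelial cells and immune cells. In whole tissue, fewer cycling cells and less RNA per cell cannot be told apart.

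Signals below are MAS5 intensities brought to a common trimmed mean of 129 on every array, in arbitrary units, and have no common scale between genes. A gene was called dim in a group when its mean log2 level lay below the 40th percentile of all probe sets there, a signal of 17.7 in fed BAT, 18.5 in fasted BAT, 17.4 in fed WAT, 19.1 in fasted WAT, 13.3 in fed liver and 13.6 in fasted liver. Above that mark were 33 of the 39 genes in fed BAT and 35 in fasted BAT, 38 in fed WAT and 35 in fasted WAT, but 25 in fed liver and 24 in fasted liver. Of all named genes, 71.6% to 72.7% lay above it in each group. Of the 39, 19 were dim in no group, 20 in some and 0 in all 6. Birc5, the survivin of the chromosomal passenger complex, and Bub1b, of the spindle checkpoint, were dim in 5 groups, Ccna2, cyclin A2, in 4, and Bub1, Kif23, Plk1 and Mcm3 in 3. Detection calls were not used here, so a level below the mark cannot be told from background.

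**Figure D1:**
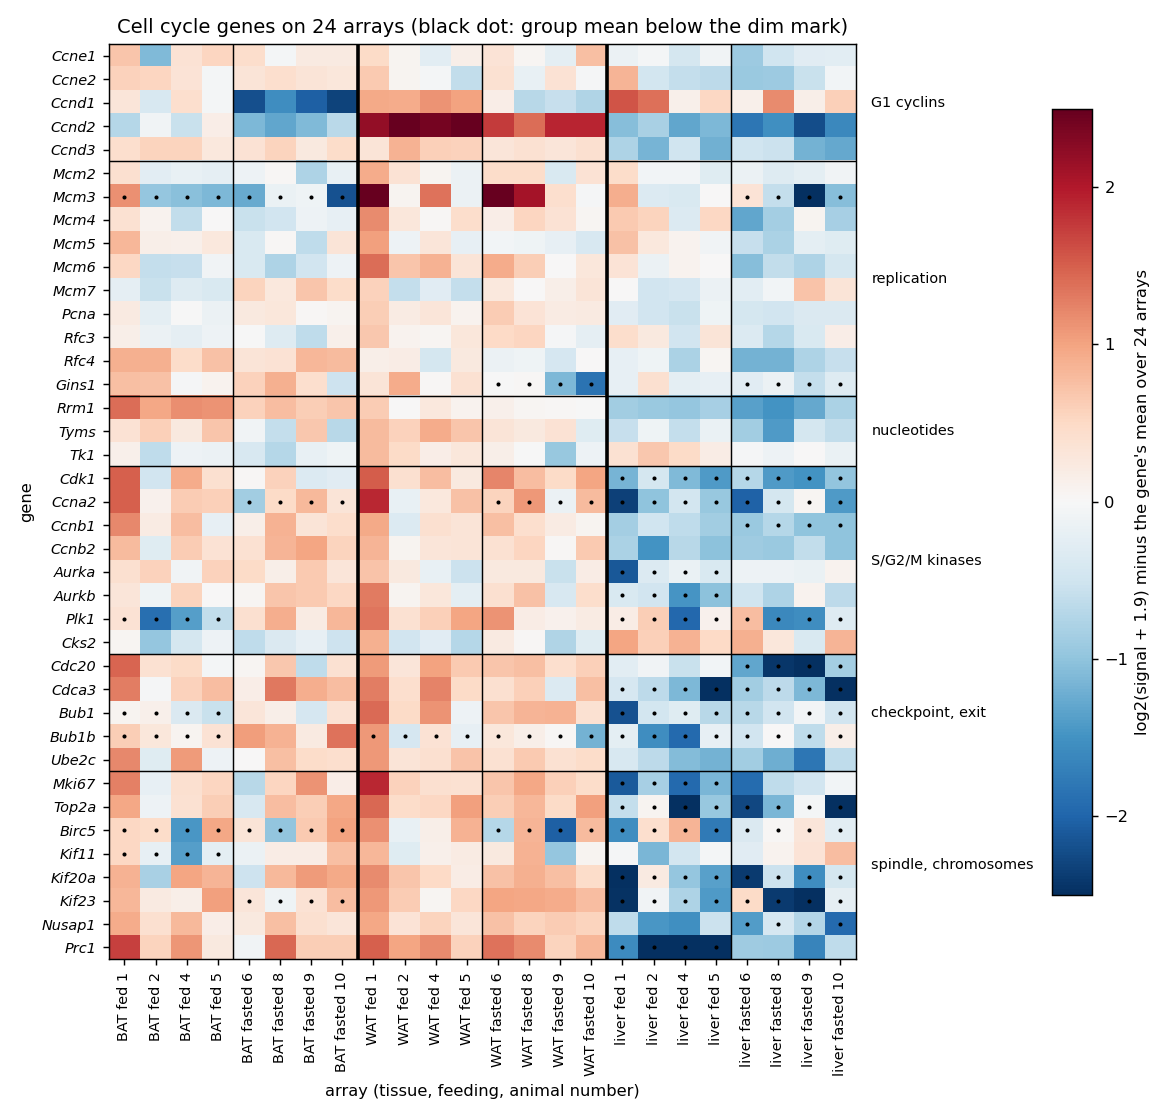
Level of 39 cell cycle genes (rows, ordered by role) on 24 arrays (columns), as log2(signal + 1.9) minus the gene's mean over all arrays; a black dot marks a gene that was dim in that group. Most division genes are pale to red in BAT and WAT and blue in liver, but Cks2 and Kif11 are not. Ccnd2 is red in WAT alone, Ccnd1 is blue in fasted BAT, and the column of WAT fed animal 1 is red for nearly every gene.

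The tissues carried their labelled markers. Ucp1, the uncoupling protein of brown adipocytes, had a mean signal of 11463 in fed BAT and 11.5 in fed WAT, and all 6 hepatocyte markers were higher in liver than in either fat. Other tissue was present too. Skeletal muscle, over 13 markers, had a mean log2 level of 11.75 to 12.21 on the 4 fasted BAT arrays and 11.36 on that of fed animal 5, but 4.47 to 6.95 on the other 3 fed BAT arrays, and in WAT it was 10.83 and 11.82 for fasted animals 8 and 10 against 3.75 to 4.58 on the other 6. The mean of 10 T and B lymphocyte markers was 8.66 on the array of WAT fed animal 1, 7.82 and 7.73 for WAT fasted animals 8 and 6 and 5.55 for WAT fed animal 4, against 4.28 to 4.63 on the other 4 WAT arrays. The 3' to 5' signal ratio of actin, a sign of RNA integrity, was 1.93 and 1.80 (log2) for BAT fed animals 1 and 4 and 0.85 to 1.07 on the other 6 BAT arrays. Each tissue was scanned on days of its own, so tissue and scan day cannot be told apart. In BAT a high muscle level went with fasting on all arrays but that of fed animal 5. Muscle level and fasting can barely be told apart there, also with both in a model.

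With fasting, Ccnd1 fell in BAT and WAT and Ccnd2 in all 3 tissues, while 1 division gene was called in any tissue. In BAT 33 of the 39 genes passed the filter on low values, 1 rose and 3 fell, that is Mcm7 and then Ccnd1, Ccnd2 and Rrm1. Calls were made at a limma adjusted p (Benjamini-Hochberg, over all genes) under 0.05, and in BAT they covered 26.9% of all genes (13.8% up and 13.1% down), so the share among the cell cycle genes was below the background. In WAT 0 of 35 rose and 2 fell, Ccnd1 and Ccnd2, against 18.2% of all genes (8.64% higher and 9.53% lower). In liver 0 of 26 rose and 5 fell, Ccnd2, Cdc20, Mcm6, Mcm4 and Tk1, against 18% of all genes (9.44% higher and 8.59% lower). The median log2 change of the tested cell cycle genes was -0.12 in BAT, -0.08 in WAT and -0.32 in liver, where that of all genes was 0.01, 0.03 and 0.03. Fed and fasted arrays did not overlap for 3 of 33 genes in BAT, 4 of 35 in WAT and 6 of 26 in liver, against 28.9%, 23.2% and 23% of all genes.

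**Figure D2:**
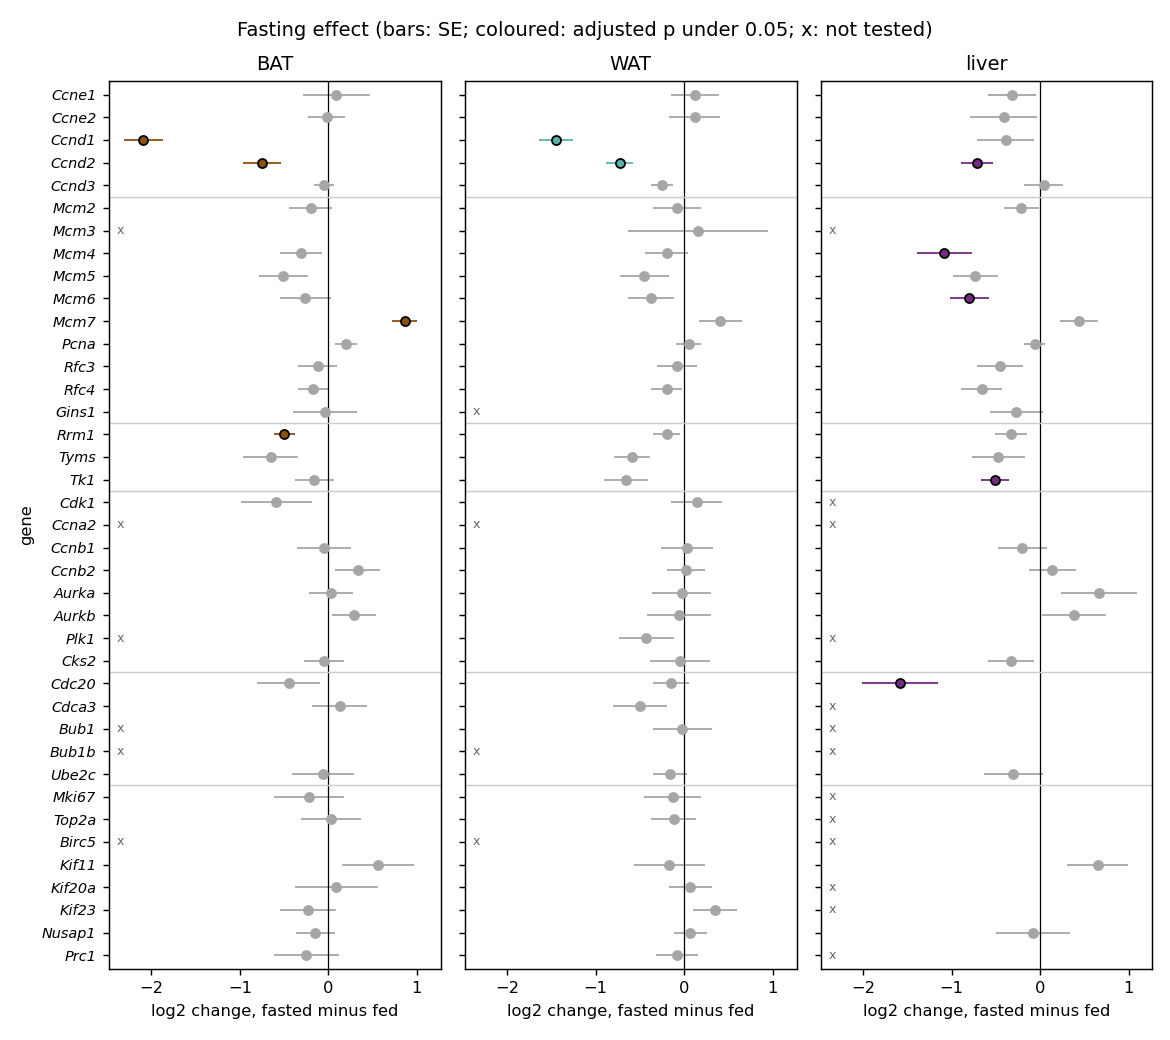
Fasted minus fed change (log2(signal + 1.9), points, with SE) of each gene in BAT, WAT and liver, from 4 fed and 4 fasted arrays per tissue; coloured points passed an adjusted p of 0.05, grey ones did not and an x marks a gene not tested. Ccnd1 lies far to the left in BAT (-2.09) and WAT (-1.45), and Ccnd2 is the one gene coloured in all 3 tissues.

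Ccnd1 encodes cyclin D1, the G1 cyclin most closely tied to growth factor signalling. In BAT its signal was 290, 176, 315 and 227 in fed animals 1, 2, 4 and 5, and 49.7, 79.4, 55.9 and 46.1 in fasted animals 6, 8, 9 and 10. Every fasted BAT array lay below every fed one. The fall was -2.09 ± 0.22 (log2, SE), 4.25-fold, with a limma adjusted p of 0.000135. In WAT the signal was 453, 448, 510 and 472 in fed rats and 265, 145, 157 and 139 in fasted rats. The fed WAT values were tight, and the groups were again apart, with a change of -1.45 ± 0.19, 2.74-fold, and a limma adjusted p of 0.000862. In liver the signal was 704, 609, 258 and 336 in fed rats and 256, 532, 261 and 356 in fasted rats. Liver arrays overlapped widely, and the change of -0.39 ± 0.32 did not pass. All 3 Ccnd1 probe sets fell in BAT (-1.91, -1.79 and -2.09) and in WAT (-1.46, -1.22 and -1.45), and none passed in liver (-0.19, -0.76 and -0.39). Tested directly, the fasting change of Ccnd1 in BAT was lower than that in liver by -1.70 ± 0.40 (log2, limma adjusted p = 0.00654). The WAT change minus the liver change was -1.07 ± 0.40 and did not pass (adjusted p = 0.107), although it did without fasted animal 6 (-1.41, 0.0453). The BAT change minus the WAT change was -0.63 ± 0.40 and did not pass. The Ccnd1 fall in BAT passed in all 21 alternative settings, with values from -2.25 to -1.79, and that in WAT in 20 of 21, missing only among the 4 arrays of the second scan day (-1.29, adjusted p = 0.0885). Of the 11 fasting calls among cell cycle genes in the 3 tissues, 11 had the same sign on each scan day alone.

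Ccnd2 encodes cyclin D2, which can stand in for cyclin D1 at the G1 kinases. In WAT its signal was 1460, 1901, 1667 and 2056 in fed rats and 1056, 838, 1182 and 1189 in fasted rats, a change of -0.73 ± 0.15 (log2) with a limma adjusted p of 0.008. In liver it was 151, 178, 127 and 143 in fed rats and 89.1, 108, 66.4 and 102 in fasted rats, a change of -0.71 ± 0.18 with an adjusted p of 0.0184. In both tissues each fasted array lay below each fed one. In BAT it was 191, 297, 215 and 354 in fed rats and 144, 126, 146 and 197 in fasted rats, a change of -0.75 ± 0.21 with a limma adjusted p of 0.0223. The BAT groups met at the lowest fed and highest fasted animal. The BAT call was lost without fed animal 2 (adjusted p = 0.0634), without fasted animal 6 (0.0509) or without fasted animal 8 (0.0604), and the liver call without fed animal 2 (0.056). Among the 4 arrays of the second scan day, Ccnd2 did not pass in BAT (-0.58, adjusted p = 0.0553), WAT (-0.73, 0.0934) or liver (-0.49, 0.181). With the muscle marker level in the model, Ccnd2 no longer passed in BAT (-1.14, adjusted p = 0.095) or in WAT (-0.66, 0.0566).

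Ccnd3 encodes the third D-type cyclin, and it did not pass in any tissue. Its mean signal was 464 ± 45.1 (SD, n = 4) in fed and 449 ± 43.9 in fasted BAT, 512 ± 80.6 and 428 ± 17.0 in WAT (418, 615, 511 and 503 against 413, 439, 414 and 446), and 182 ± 43.3 and 188 ± 53.3 in liver. The log2 changes were -0.05 ± 0.11 in BAT, -0.25 ± 0.12 in WAT and 0.04 ± 0.22 in liver. In liver the Ccnd3 signal followed the scan day, being higher by 0.63 ± 0.11 (log2, limma adjusted p = 0.00468) on the second day, when 14.4% of all genes were called, and in BAT 0 of 33 genes differed by scan day against 5.66% of all genes. The E-type cyclins, which activate Cdk2 at the entry to S phase, passed in no tissue. Ccne1 averaged 28.8 ± 13.0 and 27.8 ± 4.19 in fed and fasted BAT, 26.1 ± 5.9 and 29.0 ± 9.25 in WAT, and 20.7 ± 2.61 and 16.5 ± 3.55 in liver. The log2 change of Ccne2 was -0.02 ± 0.21 in BAT, 0.12 ± 0.29 in WAT and -0.41 ± 0.38 in liver.

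**Figure D3:**
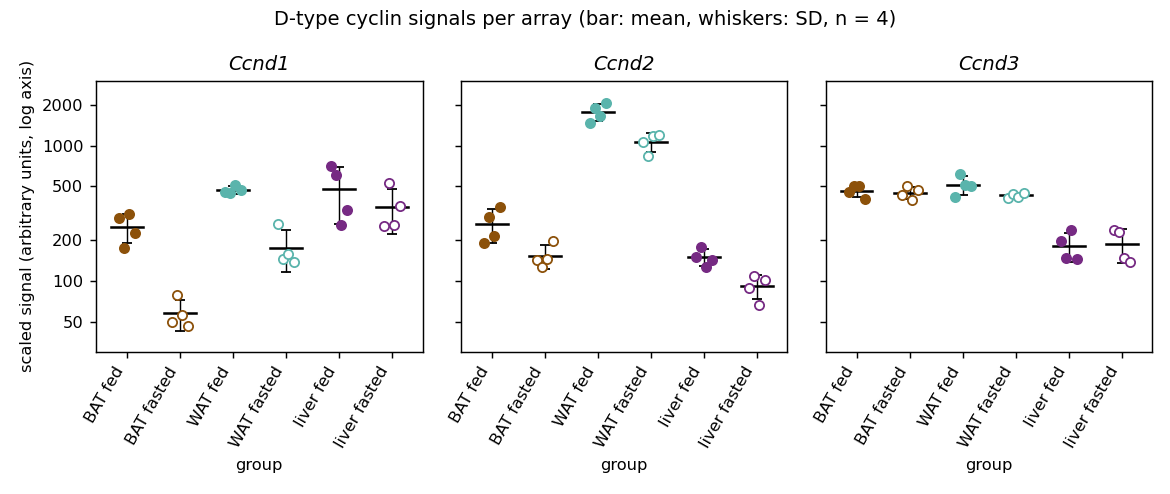
Scaled signal (arbitrary units, log axis) of Ccnd1, Ccnd2 and Ccnd3 on each array by group (filled, fed; open, fasted), with the mean (bar) and SD (whiskers, n = 4). Ccnd1 drops to 46.1 to 79.4 in fasted BAT, Ccnd2 stands at 838 to 2056 in WAT and at or below 354 elsewhere, and Ccnd3 fed and fasted arrays overlap in each tissue.

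Among the replication genes 1 of 9 tested rose in BAT, against 13.8% of all genes. In liver 2 of 9 fell, against 8.59% of all genes. Mcm7, a subunit of the same 6-part helicase as Mcm2 to Mcm6, rose in BAT. Its signal was 121, 94.8, 112 and 107 in fed and 208, 169, 229 and 194 in fasted BAT. No arrays overlapped, and the change was 0.86 ± 0.14 (log2, limma adjusted p = 0.00127), which no longer passed with the muscle marker level in the model (0.85, adjusted p = 0.094). Its changes of 0.41 ± 0.24 in WAT and 0.44 ± 0.21 in liver did not pass. The Mcm7 gene also hosts a microRNA cluster in an intron, and a single probe set measured it.

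In liver, Mcm6 and Mcm4 fell. The Mcm6 signal was 49.9, 35.1, 41.5 and 38.8 in fed and 17.5, 24.6, 21.8 and 28.0 in fasted liver, a change of -0.80 ± 0.22 (log2, limma adjusted p = 0.0287). The Mcm4 signal was 81.0, 75.6, 40.2 and 73.7 in fed and 19.6, 27.3, 53.6 and 27.7 in fasted liver, a change of -1.08 ± 0.31 (adjusted p = 0.0336). The Mcm6 groups were apart, and the Mcm4 groups overlapped through fed animal 4 and fasted animal 9. The Mcm4 call was lost without any one of fed animals 1, 2 and 5 or fasted animals 6, 8 and 10 (adjusted p 0.0704 to 0.0882), and the Mcm6 call without any one of fed animals 1, 4 and 5 or fasted animals 6, 8 and 9 (0.0512 to 0.0793). Within single scan days neither passed (Mcm4 -0.92 and -1.24, adjusted p 0.0938 and 0.0707; Mcm6 -0.54 and -1.06, 0.325 and 0.0747). Without the filter on low values neither passed (adjusted p 0.0518 for Mcm4 and 0.057 for Mcm6), and 5.6% of all genes were called lower and 5.92% higher in liver. Of the 10 replication genes, 9 had a negative change in liver, with a median of -0.56 over all 10. Next by p were Rfc4, of the clamp loader (-0.66 ± 0.23, limma adjusted p = 0.066), and Mcm5 (-0.73 ± 0.25, 0.0696).

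Other replication genes did not pass. Pcna, the sliding clamp of the polymerases, averaged 724 ± 105 and 830 ± 77.0 (SD, n = 4) in fed and fasted BAT, 923 ± 152 and 956 ± 139 in WAT, and 583 ± 81.3 and 557 ± 21.8 in liver. Mcm2 averaged 45.9 ± 11.5 and 39.6 ± 9.08 in BAT, 61.0 ± 21.8 and 56.9 ± 14.4 in WAT, and 48.2 ± 12.0 and 40.8 ± 3.13 in liver. Neither passed in any tissue. Mcm6 averaged 36.0 ± 14.7 and 28.5 ± 5.51 in BAT and 72.9 ± 23.7 and 55.5 ± 15.7 in WAT, where its changes of -0.26 ± 0.29 and -0.37 ± 0.26 (log2) did not pass either.

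Among the nucleotide genes, Rrm1, the large subunit of ribonucleotide reductase, fell in BAT. Its signal was 330, 247, 282 and 275 in fed and 187, 215, 190 and 203 in fasted BAT, with no overlap and a change of -0.50 ± 0.12 (log2, limma adjusted p = 0.011). Without the arrays of fed animals 1 and 4, which had the high actin ratio, it was -0.39 and did not pass (adjusted p = 0.0927), nor did it with the muscle marker level in the model (-0.53, 0.235) or among the arrays of the first scan day (-0.41, 0.123). Tk1, the thymidine kinase of the salvage pathway, had signals of 76.8, 95.3, 82.6 and 66.6 in fed and 57.3, 53.9, 58.8 and 51.9 in fasted liver. The groups were apart, but the change of -0.51 ± 0.16 was near the threshold (limma adjusted p = 0.0484) and was lost without any one animal other than fed animal 5 (0.0762 to 0.127) and within each scan day (-0.51 and -0.50, 0.205 and 0.2). In WAT the Tk1 signal was 102, 82.0, 65.8 and 72.2 in fed and 65.1, 57.6, 29.7 and 53.8 in fasted rats, a change of -0.66 ± 0.25 that did not pass (adjusted p = 0.0935). Tyms is thymidylate synthase, and its signal was 51.3, 43.3, 56.0 and 47.5 in fed and 36.2, 34.3, 37.5 and 22.8 in fasted WAT, a change of -0.59 ± 0.20 (adjusted p = 0.0715). Neither pair of groups overlapped. In BAT the Tyms signal was 37.6, 44.0, 34.1 and 47.8 in fed and 26.7, 18.3, 46.6 and 17.0 in fasted rats, with overlap through fasted animal 9 and a change of -0.65 ± 0.31 (adjusted p = 0.148). Another Tk1 probe set fell in WAT by -1.54 ± 0.34 when all probe sets were tested (adjusted p = 0.0151), so the Tk1 probe sets differed there.

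Of the division genes, 0 of 16 tested passed in BAT, 0 of 18 in WAT and 1 of 9 in liver, against 26.9%, 18.2% and 18% of all genes. Cdc20 activates the anaphase-promoting complex. Its signal was 26.1, 29.6, 21.0 and 30.4 in fed and 11.7, 4.27, 3.24 and 16.9 in fasted liver, where it was dim. The groups did not overlap, and the change was -1.58 ± 0.43 (log2, limma adjusted p = 0.0257), lost without fed animal 1 (adjusted p = 0.056), fasted animal 8 (0.0668) or fasted animal 9 (0.0578), and within each scan day (-1.70 and -1.47, 0.135 and 0.121). The other 4 Cdc20 probe sets were too dim to test in liver, and one of them fell in BAT (-1.45 ± 0.41, adjusted p = 0.0329 over all probe sets), where the one used did not pass (-0.45 ± 0.36).

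Prc1 bundles the microtubules of the central spindle. Its signal was 8.75, 2.39, 1.69 and 3.09 in fed liver, where it was dim, and 15.2, 14.9, 8.18 and 18.4 in fasted liver, with the lowest fasted array below the highest fed one. It did not pass the filter in liver, and without the filter the change was 1.54 (log2, limma adjusted p = 0.0394). In BAT it was 101, 44.7, 65.9 and 35.3 in fed and 27.9, 84.0, 46.4 and 46.2 in fasted rats. The fasting change in BAT minus that in liver was -1.79 ± 0.52 (adjusted p = 0.0273). With a pseudocount of 16, which damps dim values, that difference was -0.80 and did not pass (adjusted p = 0.137), nor did it without fed animal 2 or 4 or fasted animal 6 or 10 (0.069 to 0.106). For BAT minus liver, 2 of the 32 tested genes were called, Ccnd1 and Prc1, against 11.3% of all genes. For WAT minus liver 0 of 32 were called against 8.08% (Prc1 had an adjusted p of 0.0573), and for BAT minus WAT 0 of 32 against 1.56%. With the animal as a replicate block, Prc1 passed for WAT minus liver as well (-1.62, adjusted p = 0.023).

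Mki67, the proliferation antigen Ki-67, did not pass in BAT or WAT and was too dim to test in liver. Its signal was 76.3, 26.4, 41.0 and 45.7 in fed and 18.4, 45.5, 68.7 and 34.5 in fasted BAT. In WAT it was 119, 46.9, 40.8 and 40.7 in fed and 50.4, 61.5, 47.7 and 43.1 in fasted rats, and in liver 5.74, 16.3, 6.61 and 12.9 in fed and 6.72, 19.2, 21.6 and 29.1 in fasted rats. The WAT array of fed animal 1 stood above the other 7, and liver lay mostly below both fats. Top2a, the topoisomerase that untangles sister chromatids, averaged 33.7 ± 10.7 and 35.2 ± 12.8 (SD, n = 4) in fed and fasted BAT, 45.1 ± 15.4 and 40.2 ± 7.16 in WAT, and 12.9 ± 9.17 and 9.34 ± 9.21 in liver. Cdk1, the mitotic kinase, averaged 48.9 ± 27.0 and 29.0 ± 9.59 in BAT, 51.1 ± 23.0 and 53.8 ± 11.9 in WAT, and 13.3 ± 4.73 and 11.9 ± 3.57 in liver. Both were dim in fed and fasted liver.

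The array of WAT fed animal 1 carried the highest level of most cell cycle genes in its tissue. It was the highest of 8 WAT arrays for 30 of the 39 genes and for 20 of the 21 division genes, whereas it was the highest for 15.5% of all genes tested in WAT. It was also the WAT array with the highest lymphocyte marker level, with a signal of 347 for Cd3e, 411 for Cd79b, 620 for Ms4a1 and 1232 for Ptprc. On the 4 WAT arrays with low marker levels, Cd3e was 3.90 to 22.4 and Ms4a1 6.28 to 12.8. Mcm3 had signals of 167, 17.2, 44.5 and 14.4 in fed and 112, 75.4, 22.4 and 15.8 in fasted WAT, and its 4 highest arrays were the 4 with the highest lymphocyte marker level. Those 4 were also all scanned on the second day, when Mcm3 was higher by 2.36 ± 0.41 (log2, limma adjusted p = 0.0366). It was the 1 gene of 35 tested that was called by scan day in WAT, against 4.38% of all genes. Of the 35, 31 were higher and 4 lower on the second day, with a median of 0.37 against -0.01 for all genes. Marker level and scan day therefore cannot be told apart in WAT, for Mcm3 or for the cell cycle genes as a set. The part of lymphocytes in the WAT levels was not tested. Without the arrays of fed animal 1 and fasted animals 6 and 8, both D-type cyclin falls in WAT remained (Ccnd1 -1.67, limma adjusted p = 0.00187; Ccnd2 -0.65, 0.0263).

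In BAT, too, the array of fed animal 1 was the highest of 8 for 20 of the 39 genes, against 12.6% of all genes tested. It did not carry the lymphocyte signal. Its lymphocyte marker level of 3.84 lay within the range of the other BAT arrays, 3.57 to 4.27, and it had the highest actin ratio. In liver the highest counts were smaller, 11 of the 39 genes for fed animal 1 and 9 for fed animal 2, against 14.5% and 10.3% of all genes tested.

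**Figure D4:**
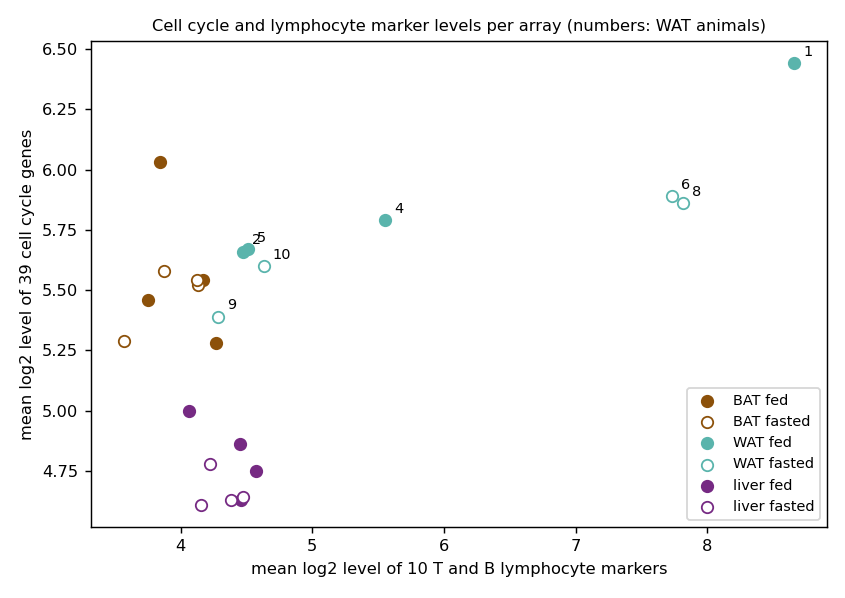
Mean log2 level of 39 cell cycle genes (y) against that of 10 T and B lymphocyte markers (x) on each of 24 arrays, by tissue and feeding; numbers give the WAT animals. WAT fed animal 1 is highest on both axes (8.66 and 6.44), WAT fasted animals 8 and 6 follow on the marker axis (7.82 and 7.73) and BAT fed animal 1 on the gene axis (6.03), and liver lies at the bottom with a marker level like that of BAT.

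Between tissues, more genes were called. Averaged over fed and fasted groups, 22 of 32 tested genes were lower and 3 higher in liver than in BAT, against 76.4% of all genes called in either direction (48.1% lower and 28.2% higher). Since some genes passed the filter only through the fats, the counts without the filter are the fairer ones, and there 24 of the 39 were lower in liver than in BAT and 3 higher, against 41.1% and 22.5% of all genes. Against WAT, 21 of 32 were lower in liver and 1 higher (72.8% of all genes called, 46.3% lower and 26.5% higher), and without the filter 25 of 39 and 1 (37.7% and 21.9%). The median difference over all 39 genes was -0.76 for liver minus BAT and -1.05 for liver minus WAT (log2), where that of all genes was -0.28 and -0.17. Median centring of the arrays moved the median of all genes tested from -0.26 to 0.08 and from -0.24 to 0.18. It left 17 of 32 cell cycle genes lower and 4 higher than in BAT, and 19 lower and 4 higher than in WAT. Over all genes it called 7714 and 7470 of 10451 in either direction. The lower and higher shares above are not those of this setting. The actin 3' to 5' ratio (log2) was 1.19 to 2.00 on liver arrays, 0.85 to 1.93 on BAT arrays and 0.79 to 1.35 on WAT arrays, and its part in the tissue differences was not tested.

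The differences between liver and fat are given by role. Without the filter, 17 of 21 division genes were lower in liver than in BAT and 1 was higher, with a median difference of -1.38 (log2). Of the 10 replication genes 2 were lower and 0 higher, with a median of -0.06. Against WAT, 16 of 21 division genes were lower, with a median of -1.53, and 5 of 10 replication genes, with a median of -0.44. Of all genes without the filter, 41.1% were lower and 22.5% higher in liver than in BAT, with a median of -0.28. Against WAT the shares were 37.7% and 21.9%, with a median of -0.17. No test compared the roles with each other.

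**Figure D5:**
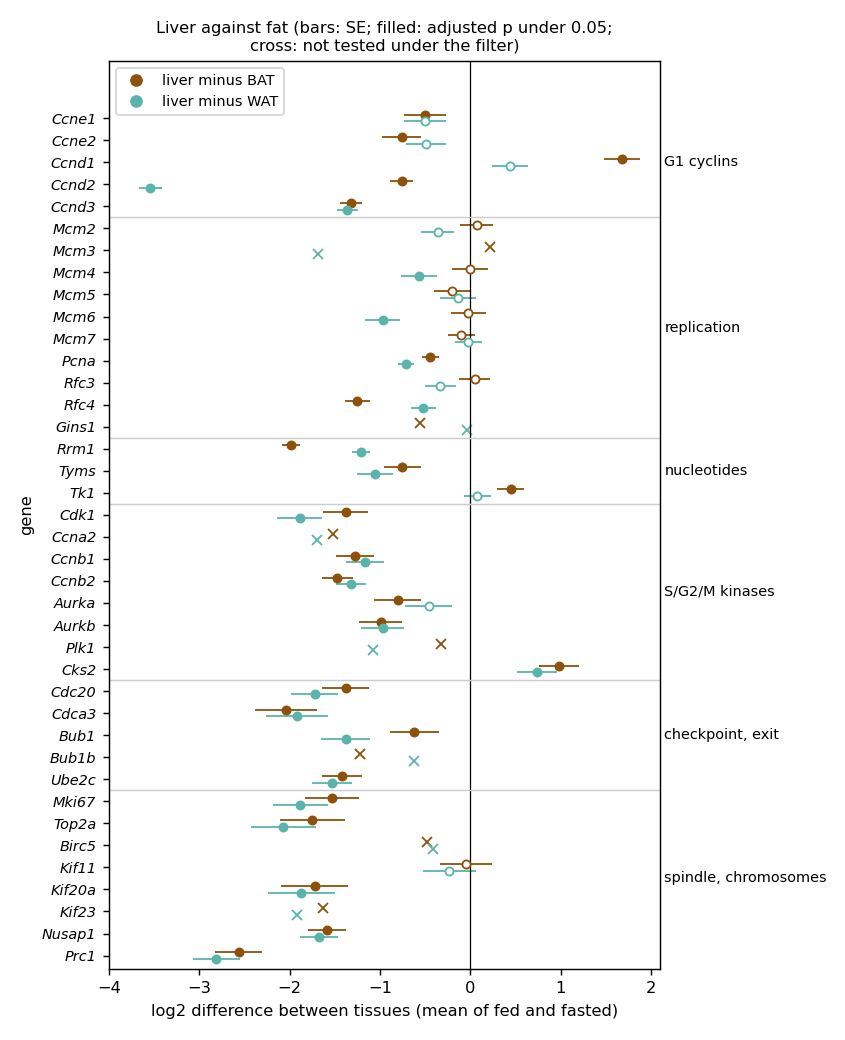
Difference in level between liver and BAT or WAT (log2(signal + 1.9), mean of fed and fasted groups, with SE) for 39 genes by role; filled points passed an adjusted p of 0.05 and crosses are genes the filter left out. Prc1 lies farthest left among the division genes (-2.56 and -2.81), Cks2 is the one division gene right of 0, and the replication genes have a median near 0 against BAT (-0.06).

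The largest single difference was that of Ccnd2, lower in liver than in WAT by -3.54 ± 0.13 (log2, 11.6-fold, limma adjusted p = 1.52e-17). Among the division genes Prc1 differed most, by -2.56 ± 0.26 (log2) below BAT (limma adjusted p = 3.62e-09) and -2.81 ± 0.26 below WAT (7.66e-10). Cdca3, a trigger of mitotic entry, was lower by -2.04 ± 0.34 and -1.92 ± 0.34. Top2a was lower by -1.75 ± 0.36 and -2.07 ± 0.36. Prc1 was dim in fed liver, and Cdca3 and Top2a in fed and fasted liver, so the differences there run down to the background level. The same limit holds for several genes given next. Kif20a and Cdk1 were dim in both liver groups, Mki67, Aurka and Aurkb in fed liver, and Nusap1, Ccnb1 and Cdc20 in fasted liver. Kif20a, a kinesin of cytokinesis (-1.72 ± 0.37 and -1.87 ± 0.37), Nusap1, which stabilises spindle microtubules (-1.59 ± 0.21 and -1.67 ± 0.21), Cdk1 (-1.38 ± 0.25 and -1.89 ± 0.25) and Mki67 (-1.53 ± 0.30 and -1.88 ± 0.30) were lower too. Ccnb2, cyclin B2, stayed above the dim mark in liver and was lower by -1.47 ± 0.17 and -1.32 ± 0.17, with signals of 13.3 to 26.1 over the 8 liver arrays, 33.0 to 83.7 in BAT and 41.8 to 75.8 in WAT. No liver array of Ccnb2 reached the lowest fat array. Ube2c, the ubiquitin-conjugating enzyme of the anaphase-promoting complex (-1.42 ± 0.22 and -1.53 ± 0.22), Ccnb1, cyclin B1 (-1.28 ± 0.21 and -1.16 ± 0.21), Cdc20 (-1.38 ± 0.26 and -1.72 ± 0.26) and Aurkb, a kinase of chromosome attachment (-0.99 ± 0.24 and -0.97 ± 0.24), were lower than in both fats. Aurka was lower than in BAT (-0.80 ± 0.26), a call lost under quantile normalization (-0.48, adjusted p = 0.0888) and median centring (-0.49, 0.0807), and did not pass against WAT (-0.46 ± 0.26), and Kif11, a spindle kinesin, passed in neither (-0.05 ± 0.29 and -0.23 ± 0.29). Without the 3 WAT arrays rich in lymphocyte markers, Mki67 (-1.63), Cdk1 (-1.69) and Prc1 (-2.59) remained lower in liver than in WAT (limma adjusted p 0.000243, 2.73e-05 and 2.16e-07).

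Higher in liver than in BAT were Cks2, Ccnd1 and Tk1. Cks2, a small subunit that binds Cdk1, was higher in liver than in BAT by 0.98 ± 0.22 (log2, limma adjusted p = 0.000294) and than in WAT by 0.74 ± 0.22 (0.00377). Its signal was 178, 136, 165 and 126 in fed and 166, 109, 68.1 and 162 in fasted liver, with 44.4 to 92.2 in BAT and 52.3 to 166 in WAT. Ccnd1 was higher in liver than in BAT by 1.68 ± 0.20 (adjusted p = 4.98e-08) and Tk1 by 0.45 ± 0.15 (0.0109). The Ccnd1 difference averages a fed and a fasted difference that were unequal, as the fasting test above showed, and the Tk1 call was lost without fed animal 2 (0.33, 0.0727). By contrast, Rrm1 was lower in liver than in BAT by -1.98 ± 0.10 and than in WAT by -1.21 ± 0.10, with fed means of 65.9 ± 2.72 in liver, 284 ± 34.6 in BAT and 151 ± 30.2 in WAT (SD, n = 4).

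Between BAT and WAT, 1 of 16 tested division genes was called, Bub1, a kinase of the spindle checkpoint (-0.76 ± 0.27, limma adjusted p = 0.018). That call was lost without fed animal 4 (0.0616), fasted animal 8 (0.0501) or fasted animal 9 (0.0702). Over all 32 tested genes 2 were higher in BAT and 8 lower, against 58.8% of all genes called (27.3% higher and 31.5% lower). Higher were Rrm1 (0.76 ± 0.10, adjusted p = 9.78e-07) and Rfc4 (0.73 ± 0.14, 0.000116). The largest difference was that of Ccnd2, lower in BAT by -2.78 ± 0.13 (6.86-fold, adjusted p = 2.33e-14), with 126 to 354 over the 8 BAT arrays and 838 to 2056 over the 8 WAT arrays. Ccnd1 was lower in BAT by -1.24 ± 0.20 (limma adjusted p = 1.12e-05) and Mcm6 by -0.95 ± 0.19 (0.000147). Mcm4 (-0.57 ± 0.20), Mcm2 (-0.43 ± 0.18), Tk1 (-0.37 ± 0.15) and Pcna (-0.27 ± 0.09) were lower as well. Without the 3 WAT arrays rich in lymphocyte markers, 5 of 31 genes were called in place of 10 of 32. Over all genes, 5208 of 10448 were called in place of 6148 of 10449. Those 3 arrays were also scanned on the second WAT scan day, so marker level and scan day cannot be told apart here. The falls of Mcm4 (-0.42, limma adjusted p = 0.129), Mcm2 (-0.20, 0.392), Tk1 (-0.16, 0.434) and Pcna (-0.15, 0.18) then no longer passed, while those of Ccnd2 (-2.91), Ccnd1 (-1.15) and Mcm6 (-0.70, 0.00691) did. The Tk1 call was also lost with the animal as a replicate block (0.0575) and without any one of fed animals 1, 2 and 5 or fasted animals 6, 8 and 10 (0.0541 to 0.174). The Mcm4 call was also lost without animal 8 (0.0672), and the Mcm2 call without any one of fed animals 2 and 4 or fasted animals 6, 8 and 10 (0.0655 to 0.114).

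Promoters are shown for genes of the division and replication roles, whose tissue differences are given above. RefSeq promoter sequences (assembly GRCr8, from 250 bases before to 50 after the gene's start) were matched for 32 of the 39 genes, which leaves Aurkb, Ccna2, Ccnd1, Ccnd2, Ccne2, Mcm4 and Ube2c named only. Below are 4 division genes, Prc1 (chr1:143659231-143659530 on the plus strand), Ccnb2 (chr8:79981609-79981908 on the minus strand), Cdk1 (chr20:19265043-19265342 on the plus strand) and Cdc20 (chr5:137255750-137256049 on the minus strand), and 2 replication genes, Mcm5 (chr19:13488563-13488862 on the plus strand) and Mcm6 (chr13:42404303-42404602 on the minus strand). Each is written 5′ to 3′ on the gene's strand. Capitals mark matches on either strand to CHR (TTTGAA or TTCGAA, the cell cycle homology region), to E2F (TTTGGCGC, TTTGCCGC, TTTCGCGC or TTTCCCGC) and to the CCAAT box.
Prc1: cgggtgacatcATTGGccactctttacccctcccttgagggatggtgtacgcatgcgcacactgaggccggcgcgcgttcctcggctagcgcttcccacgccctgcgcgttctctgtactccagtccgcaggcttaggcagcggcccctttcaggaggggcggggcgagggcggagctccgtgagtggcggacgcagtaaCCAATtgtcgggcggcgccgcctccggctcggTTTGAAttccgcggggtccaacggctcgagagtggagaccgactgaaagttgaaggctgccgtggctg
Ccnb2: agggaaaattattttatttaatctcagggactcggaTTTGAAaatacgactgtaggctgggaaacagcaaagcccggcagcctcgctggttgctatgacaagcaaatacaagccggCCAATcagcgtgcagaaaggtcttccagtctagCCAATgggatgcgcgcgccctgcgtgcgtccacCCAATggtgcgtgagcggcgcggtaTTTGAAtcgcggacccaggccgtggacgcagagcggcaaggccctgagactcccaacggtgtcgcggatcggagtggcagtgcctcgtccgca
Cdk1: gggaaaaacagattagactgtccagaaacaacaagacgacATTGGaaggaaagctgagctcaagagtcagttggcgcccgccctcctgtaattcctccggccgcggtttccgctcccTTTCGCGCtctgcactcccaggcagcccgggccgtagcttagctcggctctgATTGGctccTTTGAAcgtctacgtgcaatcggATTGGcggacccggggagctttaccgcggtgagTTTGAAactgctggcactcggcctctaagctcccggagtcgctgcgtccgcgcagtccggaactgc
Cdc20: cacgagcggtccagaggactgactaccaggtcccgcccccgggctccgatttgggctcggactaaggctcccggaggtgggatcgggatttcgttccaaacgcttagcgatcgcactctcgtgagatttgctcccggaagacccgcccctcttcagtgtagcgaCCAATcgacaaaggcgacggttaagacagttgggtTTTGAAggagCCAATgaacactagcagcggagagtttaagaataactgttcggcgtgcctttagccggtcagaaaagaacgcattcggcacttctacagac
Mcm5: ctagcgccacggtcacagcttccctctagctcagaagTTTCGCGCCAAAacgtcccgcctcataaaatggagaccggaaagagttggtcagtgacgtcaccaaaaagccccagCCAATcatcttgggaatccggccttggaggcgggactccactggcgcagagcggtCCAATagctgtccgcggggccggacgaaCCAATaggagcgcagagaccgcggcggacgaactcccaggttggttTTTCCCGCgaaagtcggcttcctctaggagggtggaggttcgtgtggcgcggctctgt
Mcm6: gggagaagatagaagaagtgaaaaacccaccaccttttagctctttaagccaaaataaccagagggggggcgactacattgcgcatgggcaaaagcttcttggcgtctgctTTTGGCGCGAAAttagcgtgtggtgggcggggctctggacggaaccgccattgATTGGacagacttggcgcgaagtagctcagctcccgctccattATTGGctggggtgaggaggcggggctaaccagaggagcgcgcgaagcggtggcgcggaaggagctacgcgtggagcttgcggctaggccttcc

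In the division promoters shown, the capitals are mostly CCAAT boxes followed by a CHR close to the start. In those of Mcm5 and Mcm6 they are E2F and CCAAT. The CHR of Prc1 lay at -18 from the start and the nearer one of Ccnb2 at -43, of Cdk1 at -16 and of Cdc20 at -51. Prc1, Ccnb2 and Cdc20 had no E2F match and Mcm5 and Mcm6 no CHR match, while Cdk1 had both. In Mcm5 and Mcm6 a pair of E2F matches on opposite strands overlapped and was printed as 1 run of capitals. Of the 18 division promoters, 12 held a CHR (66.7%), 15 a CCAAT box (83.3%) and 1 an E2F match (5.56%). Of the 12 promoters of replication and nucleotide genes, 4 held a CHR (33.3%), 8 a CCAAT box (66.7%) and 8 an E2F match (66.7%). Among all 33469 promoters of the same length the shares were 19.7%, 37.5% and 2.14%. A match describes the letters in this window and does not show binding.

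Regulators around the cell cycle were also measured. Inhibitors of cyclin-dependent kinases and genes of the resting state numbered 12 higher and 0 lower of 23 tested in BAT, 6 higher and 2 lower of 24 in WAT and 7 higher and 0 lower of 23 in liver. Of all genes 13.8%, 8.64% and 9.44% were called higher. In BAT 12 of 13 muscle markers rose with fasting as well. The part of muscle in the BAT changes of this list was not tested. The median log2 change of the list was 0.69 in BAT, 0.33 in WAT and 0.28 in liver, where that of all genes was 0.01, 0.03 and 0.03. Cdkn1b, the inhibitor p27, had signals of 441, 530, 381 and 409 in fed and 1179, 948, 1142 and 1194 in fasted BAT. Its mean went from 533 ± 141 to 976 ± 58.3 in WAT and from 343 ± 81.9 to 532 ± 45.7 in liver (SD, n = 4). Cdkn1b thus rose in all 3 tissues, by 1.34 ± 0.13, 0.90 ± 0.17 and 0.66 ± 0.17 (log2), with limma adjusted p of 6.53e-05, 0.00579 and 0.0201. Gadd45g, a stress-induced inhibitor of the Cdk1 kinase, rose from 151 ± 48.6 to 1086 ± 231 in BAT and from 135 ± 18.1 to 580 ± 259 in WAT, while its relative Gadd45a fell in WAT from 1098 ± 147 to 350 ± 37.8 (-1.64 ± 0.13). Gadd45b rose in BAT by 2.16 ± 0.26 and in liver by 1.35 ± 0.39. Ccng2, an atypical cyclin of resting cells, rose in liver by 1.52 ± 0.17, in WAT by 0.82 ± 0.23 and in BAT from a mean signal of 122 ± 27.4 to 194 ± 40 (SD, n = 4). Txnip, which binds thioredoxin and slows growth, rose in BAT from a mean signal of 2712 ± 787 to 6910 ± 338 (SD, n = 4), in WAT by 1.14 ± 0.12 and in liver by 1.18 ± 0.14 (log2, SE). Foxo3, a transcription factor that promotes quiescence, rose by 1.29 ± 0.19 in BAT, 0.67 ± 0.14 in WAT and 0.78 ± 0.18 in liver.

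E2F factors and pocket proteins hold or release the S phase genes. The list that holds them also included Lin9, Lin52, Lin54, Cdk4, Cdk6, Myc, Mycn and Max. Of that list, 6 rose and 2 fell of 14 tested in BAT, 5 rose and 2 fell of 16 in WAT, and 3 rose and 1 fell of 15 in liver. Its median changes were 0.56, 0.34 and -0.03. The genes that rose included Lin52, Myc and Max in BAT, Myc in WAT and Lin54 in liver. The share of all genes called in either direction was 26.9%, 18.2% and 18%. Tfdp1, the partner subunit of E2F, fell in BAT from 773, 647, 706 and 746 to 283, 374, 334 and 319, by -1.13 ± 0.11 (log2, limma adjusted p = 0.000101). It fell in WAT (-0.51 ± 0.13) and liver (-0.59 ± 0.15) too. Its relative Tfdp2 rose in all 3 tissues, by 0.59 ± 0.13, 0.83 ± 0.14 and 1.14 ± 0.20. Rbl2, the pocket protein p130 of resting cells, rose by 0.99 ± 0.12 in BAT, 0.79 ± 0.22 in WAT and 0.94 ± 0.18 in liver. Rb1, the retinoblastoma protein, rose in WAT by 0.71 ± 0.14. E2f6, a repressor of the family, fell in BAT by -0.67 ± 0.10 and in WAT by -1.33 ± 0.16.

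Lists of further replication, mitosis and chromatin genes are set against the same shares of all genes called, 26.9% in BAT, 18.2% in WAT and 18% in liver. Of the other replication genes 3 rose and 2 fell of 32 in BAT, 1 rose and 0 fell of 32 in WAT, and 1 rose and 1 fell of 30 in liver, with median changes of 0.13, 0.13 and -0.14. Rpa2, of the single-strand binding protein, rose in BAT by 0.85 ± 0.19 (log2), and Rpa1 of the same complex fell in BAT by -0.42 ± 0.14 and in liver by -0.77 ± 0.13. Of the origin recognition complex, Orc5 fell (-0.47 ± 0.12) and Orc2 rose (0.43 ± 0.12) in BAT, and Orc3 rose in WAT (0.77 ± 0.20) and liver (0.79 ± 0.19). Of the other mitosis genes 2 rose and 0 fell of 24 in BAT, 1 and 0 of 29 in WAT, and 2 and 2 of 21 in liver, with medians of 0.01, -0.04 and -0.06. Wee1, the kinase that holds Cdk1 inactive, rose in BAT from 60.3 ± 16.3 to 173 ± 17.6 (1.52 ± 0.19, limma adjusted p = 0.000332) and in WAT by 0.51 ± 0.12. Cdk2, the S phase kinase, rose in BAT by 0.56 ± 0.16. Of the S phase chromatin genes 1 of 7 rose in BAT, Ezh2, a histone methyltransferase (0.84 ± 0.25), 0 of 8 were called in WAT and 1 of 10 fell in liver, Chek1, the replication checkpoint kinase (-1.09 ± 0.25), with medians of 0.25, 0.03 and -0.08.

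The fall of Spc24 in liver exceeded that of every listed cell cycle gene there. Spc24 is a subunit of the Ndc80 complex, which ties kinetochores to microtubules. Its signal was 163, 251, 197 and 246 in fed and 21.8, 24.4, 17.3 and 22.3 in fasted liver, a change of -3.20 ± 0.19 (log2, limma adjusted p = 1.59e-06). In fed and fasted BAT it averaged 65.3 and 51.6, and in WAT 45.1 and 32.8, with no call. Of its partners, Nuf2 had signals of 16.9 to 26.1 in fed and 11.5 to 20.8 in fasted liver, and Spc25 4.90 to 25.0 and 6.11 to 10.8, with no call for either. Cenpk, another kinetochore gene, fell in liver (-1.27 ± 0.28 on the log2 scale, adjusted p = 0.00999), and Tacc3, a spindle protein, rose from 31.6 ± 8.50 to 55.9 ± 8.93 (0.81 ± 0.23).

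Markers of other cells moved with fasting beside these changes. In BAT 12 of 13 muscle markers and 7 of 12 macrophage markers tested rose, in WAT 1 of 11 muscle and 5 of 13 macrophage markers, and in liver 0 of 1 muscle and 4 of 13 macrophage markers. Of the endothelial markers 2 rose and 1 fell of 6 in BAT, and 1 of 6 rose in WAT and in liver. Preadipocyte and fibroblast markers rose for 1 of 7 in BAT, 1 of 7 in WAT and 1 of 5 in liver. Of all genes 13.8% in BAT, 8.64% in WAT and 9.44% in liver were called higher, and 13.1% in BAT lower. Of the T and B lymphocyte markers 0 were called in each tissue (4, 10 and 5 tested). The part of these cells in the fasting changes of the regulators and the further lists was not tested. For the cell cycle genes it was not tested beyond the model with the muscle marker level. In that model 1 of 33 cell cycle genes was called in BAT, Ccnd1, and 1 of 35 in WAT. Over all genes it called 337 of 10341 in BAT and 1153 of 10275 in WAT, where the main fits called 2782 and 1867. The muscle level and fasting went together in BAT except on the array of fed animal 5, so that model can barely separate them there.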

How the data were processed

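Microarray signals of 24 arrays were deposited as MAS5 intensities on a linear scale, per the submitters' processing notes; the MAS5 version and settings are not given in the sources used here, and the detection calls were not used. The deposited values have trimmed means from 93.4 to 206, so each array was scaled to a 2% trimmed mean of 129. Of 31099 probe sets, 57 controls were left out, 20826 carried 1 gene symbol, 436 several and 9780 none in the platform annotation, and genes took their brightest probe set. Signals entered as log2(signal + 1.9) computed from the deposited intensities, where 1.9 is the 10th percentile of all signals; such changes understate those of dim genes. Genes above the 40th percentile on the arrays of a fit were tested in limma 3.58.1 (R 4.3.3) with a mean-variance trend and Benjamini-Hochberg adjustment, a model tested on simulated data. Fasting was tested within each tissue, and tissues and interactions over all 24 arrays. Animal numbers were taken to mark the same animal across tissues because the design text has all 3 tissues excised from the animals (same-number correlations -0.01 to 0.15); fed and fasted share no number. Members, lists and rules were chosen with earlier results of these data known. Named were, per fasting comparison, called members or at least the 5 of lowest p; per tissue difference, the 6 largest called each way; called interactions; Mki67, Top2a, Cdk1, Pcna, Mcm2, Mcm6 and the D- and E-type cyclins throughout; and up to 3 called genes per other list and tissue, in order of p. Their values in further tissues, the partners of Spc24 and further members were added after their values were seen.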

Additional observations from a re-analysis of the deposited data

Results flagged for a closer look

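Among 190 sets of 4 arrays tested, 12 had 1 array far from the other 3, and chance gives about 1 in 20. In WAT fed animals, Mki67 had a signal of 119 for animal 1 against 40.7 to 46.9 for the others, and Rfc4 62.7 for animal 4 against 93.6 to 101. In WAT fasted animals, Aurka, a mitotic kinase, was 12.4 for animal 9 against 22.0 to 22.9, Mcm2 was 35.5 for the same animal against 60.9 to 65.7, and Plk1, another mitotic kinase, was 34.9 for animal 6 against 16.3 to 17.6. In BAT, Kif20a was 10.6 for fed animal 2 against 37.3 to 41.5 and 13.3 for fasted animal 6 against 36.3 to 43.5, and Mcm2 was 63.1 for fed animal 1 against 38.9 to 41.2. In liver, Ccne2 was 49.7 for fed animal 1 against 16.2 to 19.0, Mcm4 was 40.2 for fed animal 4 against 73.7 to 81.0, Gins1, of the replicative helicase, was 22.7 for fed animal 2 against 13.8 to 14.3, and Aurka was 20.5 for fasted animal 10 against 16.9 to 17.4. A test of the difference between tissues set apart the fasting changes of Ccnd1 and Prc1, lower in BAT than in liver by -1.70 and -1.79 (log2). The Ccnd1 difference kept its call in 17 of 17 alternative settings. That of Prc1, which was dim in fed liver, lost it in 5 of 16.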

How the results depend on the processing

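The called genes were refitted under the alternatives: 1040 of 1156 refits kept direction and call, 116 lost the call and 0 turned direction. These totals pool fasting calls with those between tissues, and refits in which a gene was not tested are not counted. The fasting calls varied, with Ccnd1 in BAT lost in 0 of 21 refits. In liver Tk1 was lost in 13 of 20, and Mcm4 and Mcm6 in 9 of 19 each. Counts of called cell cycle genes moved by over 1.5 times in these cases. For fasting in BAT (4 called), the muscle marker level as a covariate left 1, while calls over all genes went from 2782 to 337. In WAT (2 called), quantile normalization gave 4, the second scan day alone 0 and the muscle covariate 1. Calls over all genes in WAT were 1856, 274 and 1153 in these settings, against 1867 in the main fit. In liver (5 called), no filter gave 3, a filter at the 60th percentile 2, the mean of probe sets 3, the first scan day alone 2 and the second 0. For BAT minus WAT (10), liver minus BAT (25) and liver minus WAT (22), the 60th percentile left 6, 8 and 6, and leaving out the 3 WAT arrays of high lymphocyte marker level, a choice made after seeing the data, left 5 for BAT minus WAT. The filter tests fewer genes and a single scan day holds fewer arrays; for the other settings the cause was not tested. The fasting change in BAT minus that in liver (2) had 1 call at the 60th percentile and 1 with a pseudocount of 16, and that in WAT minus liver (0) had 1 under quantile normalization and 1 with the replicate block, which gave 9, 23 and 24 calls for the tissue differences and 2 for BAT minus liver. Leaving out 1 animal gave 3 to 5 calls in BAT, 2 to 3 in WAT, 1 to 4 in liver, 6 to 10, 23 to 24 and 21 to 25 for the tissue differences, and 0 to 0, 1 to 2 and 0 to 1 for the BAT minus WAT, BAT minus liver and WAT minus liver fasting changes. No paired analysis was possible for fasting within a tissue because fed and fasted animals share no number, and scan day could not be a block between tissues. Dim genes, most of all the division genes in liver, lie near background, and 4 arrays a group limit what could be detected.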
